A study of Mus musculus with 2 samples.

Results

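Snap25, Cplx2, Syt7, Rab3c, Pclo and Stxbp5l encode proteins of regulated exocytosis, the release of stored transmitter or hormone when secretory vesicles fuse with the plasma membrane. They were taken as a named list of 6 genes out of the 16943 genes that had a row in either plate, outside spike-in and mitochondrial rows, and all 6 had a row in both. Their levels were followed in single sorted cells of mouse small intestinal organoids (jejunum and ileum), which are cultured balls of intestinal epithelium. The ISX-9 plate held cells from organoids kept for 48 h with ISX-9, a small molecule, and the DMSO plate held cells from organoids kept for 48 h with the solvent DMSO. In both, the organoids carried the genotype Neurog3-RFP hom, a red fluorescent reporter of the gene for Neurog3 (Ngn3), the transcription factor that starts endocrine differentiation in the gut, and RFP-positive cells were sorted singly into 384 wells. The labels give no strain, age, sex or number of animals. With 1 library per treatment, single wells cannot stand in for replicates. No p-value is given, and every interval covers counting error only.

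Fusion of a vesicle is driven by SNARE proteins. Syntaxin and SNAP-25 on the plasma membrane zip together with synaptobrevin (VAMP) on the vesicle, complexin clamps and primes the assembled complex, and synaptotagmins trigger fusion when calcium enters. Rab3 proteins bring vesicles to the membrane, large scaffold proteins such as Piccolo organize release sites in neurons, and tomosyns bind syntaxin and SNAP-25 and hold release back. In the gut epithelium the enteroendocrine cells use this machinery to secrete hormones, and the enterochromaffin cells among them secrete serotonin, whose synthesis needs Tph1, tryptophan hydroxylase.

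A well was kept when it had at least 2000 reads outside spike-in and mitochondrial rows and at least 500 genes. This left 290 of 384 wells of the ISX-9 plate, with a median of 22509.5 reads, and 300 of 384 wells of the DMSO plate, with a median of 26340 reads. Levels are CPM, counts scaled to a common total of those reads. Wells with Tph1 at 1000 CPM or more and Neurog3 below it are called Tph1-high (44 in the ISX-9 plate and 47 in the DMSO plate), and wells with Neurog3 at 1000 CPM or more and Tph1 below it are called Neurog3-high (90 and 34). Non-endocrine wells had Neurog3, Tph1, Neurod1, Chga and Chgb each under 100 CPM, and no listed gut peptide hormone gene at 1000 CPM or more (32 and 46). None of the 6 members was used to sort wells into classes. By RNA of these 5 genes and the hormone genes, 11.0% of the kept ISX-9 wells and 15.3% of the kept DMSO wells were non-endocrine in this sense. The sort was for RFP-positive cells, and these RNA levels do not measure RFP. The 6 goblet cell markers summed to 782 CPM in ISX-9 and 326 CPM in DMSO Tph1-high wells, against 6301 CPM and 10547 CPM in non-endocrine wells. The 5 Paneth cell markers summed to 795 CPM and 223 CPM in Tph1-high wells, against 4847 CPM and 16228 CPM in non-endocrine wells. For the 4 stem cell markers these sums were 174 CPM and 1054 CPM, against 1205 CPM and 1621 CPM. The non-endocrine class was thus a mixture, and it differed between the plates. Tph1-high wells had a median of 16483.5 reads in the ISX-9 plate and 15730 in the DMSO plate, and Neurog3-high wells had 26716 and 23787.5. The non-endocrine wells were deeper, with 81378.5 and 67348.5. Their rule favors depth, because in a well under 10000 reads 1 read of any of the 5 genes exceeds 100 CPM. Of the kept wells of 2000 to 10000 reads, 1 of 94 with ISX-9 and 1 of 85 with DMSO was non-endocrine. The 384 well names, which stand for cell barcodes, were shared by both plates. Among the 225 names kept in both, Spearman's rho between same-named wells lay between -0.12 and -0.02 for the 6 members.

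By summed reads all 6 members were higher in Tph1-high and Neurog3-high wells than in the non-endocrine class as a whole. They split into those high in both endocrine classes and those high mainly in Tph1-high wells. In summed reads Cplx2, Pclo and Syt7 in Tph1-high wells were within a factor of 2 of their Neurog3-high level in both plates, while Snap25, Rab3c and Stxbp5l were at least 4 times as high in Tph1-high wells. How wells were weighted moved this grouping. With every well thinned to 2000 reads, the log2 ratio of Tph1-high to Neurog3-high wells in the ISX-9 plate was 1.33 for Pclo and 1.00 for Syt7, both past 2-fold, and that of Pclo in the DMSO plate was -1.08. Thinning also took Rab3c to 1.64 and Stxbp5l to 1.66 in the DMSO plate, under 4-fold, and Stxbp5l was at 1.91 in the ISX-9 plate at a class limit of 500 CPM. Between the treatments, Rab3c stood apart: it was the member at least 2-fold lower in the ISX-9 plate, while Snap25 and Cplx2 were at least 2-fold higher there.

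**Figure D1:**
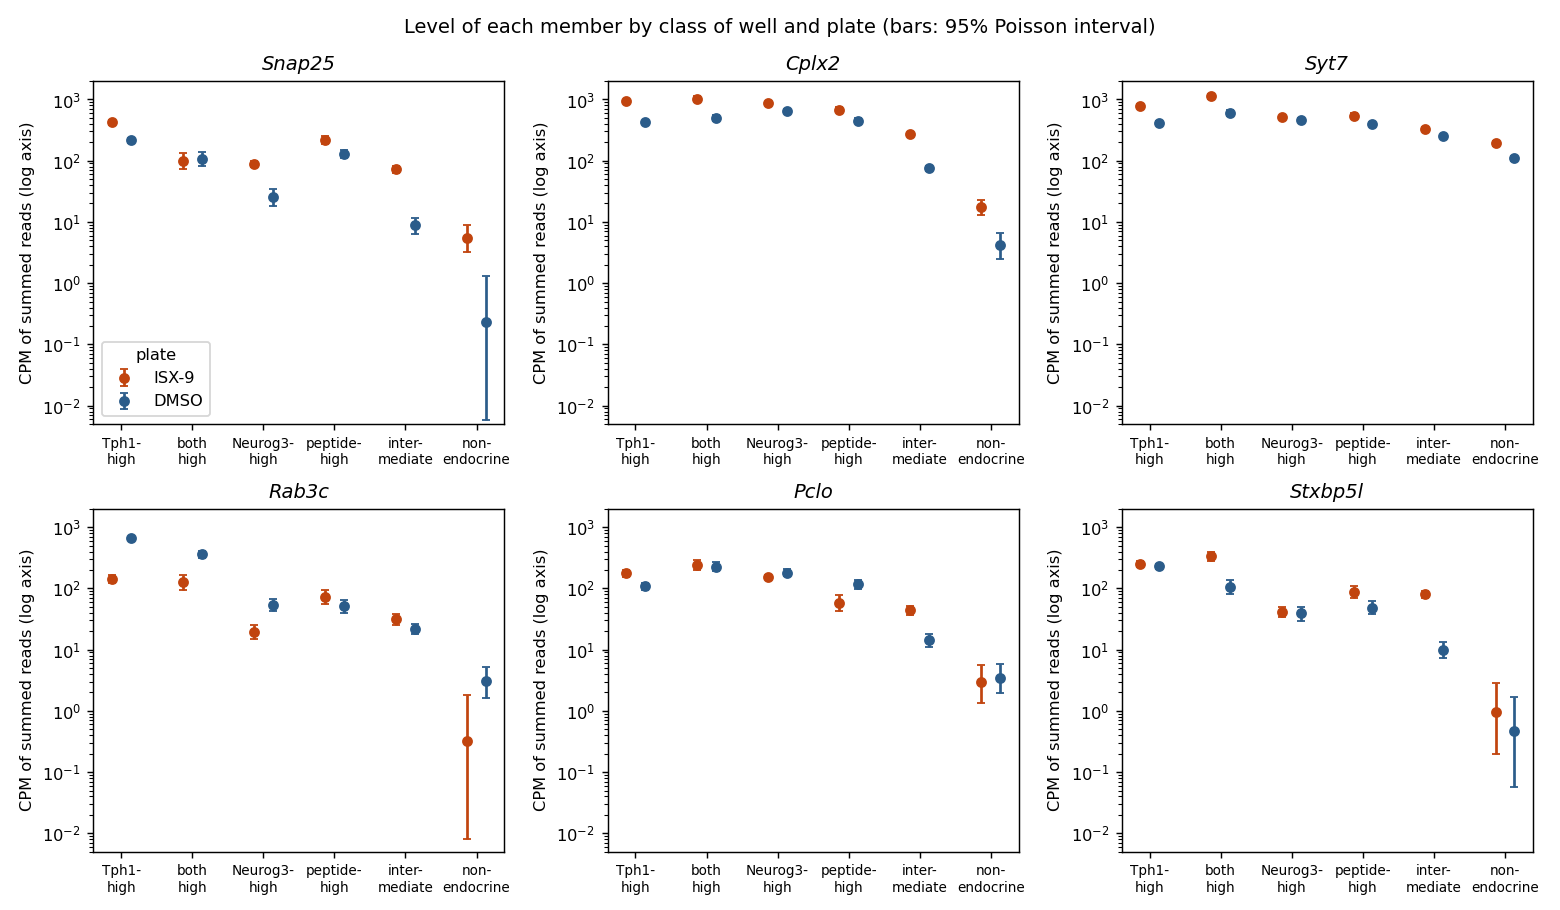
Level of each member, as CPM of the summed reads of all wells of a class (log axis), in 6 classes of wells, with the ISX-9 plate left of the DMSO plate; bars are 95% Poisson intervals of the reads. Syt7 falls least toward the non-endocrine wells (192 CPM with ISX-9 and 109 CPM with DMSO), and Rab3c is the member whose Tph1-high level is lower with ISX-9 (143 CPM) than with DMSO (658 CPM).

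The sequences before the annotated starts of the members are shown because pairs of members varied together over wells. Among members with a sequence here, these included Cplx2 with Pclo, both high in Neurog3-high wells, in both plates. They also included Rab3c with Stxbp5l, both high in Tph1-high wells, mainly in the DMSO plate. Snap25 varied with Stxbp5l (r 0.45 with ISX-9 and 0.53 with DMSO) and with Rab3c (0.42 and 0.56), but had no sequence to show. The promoter table made from RefSeq, build GRCm38.p6, held 4 of the 6 members. Snap25 and Syt7 had no entry. Each line gives the 250 bases before the start, 5′ to 3′ on the gene's own strand. The stretch for Cplx2 is chr13:54302306-54302555 on the plus strand, that for Pclo is chr5:14514668-14514917 on the plus strand, that for Rab3c is chr13:110280207-110280456 on the minus strand, and that for Stxbp5l is chr16:37384959-37385208 on the minus strand. Capitals mark matches on either strand to the E-box hexamers CAGATG and CAGCTG, core letters bound by basic helix-loop-helix factors, a class to which Neurog3 and Neurod1 belong, and to the GC box GGGCGG.
Cplx2: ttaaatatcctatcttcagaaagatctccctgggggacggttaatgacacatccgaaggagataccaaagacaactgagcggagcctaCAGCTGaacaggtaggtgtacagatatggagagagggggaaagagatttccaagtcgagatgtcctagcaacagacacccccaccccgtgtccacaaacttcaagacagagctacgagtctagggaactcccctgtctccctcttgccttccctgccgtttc
Pclo: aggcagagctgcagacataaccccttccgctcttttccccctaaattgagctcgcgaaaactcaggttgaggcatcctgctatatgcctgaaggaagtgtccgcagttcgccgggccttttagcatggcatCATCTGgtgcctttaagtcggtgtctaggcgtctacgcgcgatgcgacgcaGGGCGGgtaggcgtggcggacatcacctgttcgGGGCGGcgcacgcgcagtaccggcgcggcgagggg
Rab3c: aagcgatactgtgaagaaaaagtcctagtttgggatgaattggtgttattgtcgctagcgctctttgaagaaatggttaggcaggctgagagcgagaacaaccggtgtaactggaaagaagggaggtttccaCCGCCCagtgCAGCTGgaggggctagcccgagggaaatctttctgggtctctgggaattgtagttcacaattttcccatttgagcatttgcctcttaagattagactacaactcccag
Stxbp5l: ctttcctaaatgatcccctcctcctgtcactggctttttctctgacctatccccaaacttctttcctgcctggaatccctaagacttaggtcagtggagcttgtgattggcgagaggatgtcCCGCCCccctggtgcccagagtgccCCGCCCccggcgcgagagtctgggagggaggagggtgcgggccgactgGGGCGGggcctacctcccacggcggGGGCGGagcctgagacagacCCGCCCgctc
Cplx2 held 1 CAGCTG, whose first base lies 162 bases before the start, and Rab3c held 1 at 108 bases before it. Pclo held 1 CAGATG, read on the other strand as CATCTG, at 119 bases before its start, and 2 GC boxes. Stxbp5l held 5 GC boxes and neither E-box, and Rab3c held 1 GC box. Of the 32851 promoters in the table, 14.4% held CAGATG, 13.0% held CAGCTG and 32.7% held GGGCGG in the same window. A motif read by the repressor REST, CAGCACC, was in none of the 4 windows and in 5.73% of all. These are matches of letters only, and tags from the 3′ ends of transcripts do not tell which start a cell used.

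Cplx2 (chromosome 13), which encodes complexin 2, was high in both endocrine classes. In the ISX-9 plate its level was 941 CPM (95% interval 890 to 994) in Tph1-high wells, 879 CPM (847 to 912) in Neurog3-high wells and 17.5 CPM (13.1 to 22.8) in non-endocrine wells. With DMSO the levels in the same order of classes were 422 CPM (394 to 451), 645 CPM (605 to 687) and 4.18 CPM (2.48 to 6.60). Reads of Cplx2 were found in 85.6% of ISX-9 and 82.4% of DMSO Neurog3-high wells, the largest shares of the 3 classes, and in 21.9% and 15.2% of the deeper non-endocrine wells. Single Neurog3-high wells ran from 0 through a median of 885 CPM to 6054 CPM with ISX-9, and from 0 through 409 CPM to 2290.1 CPM with DMSO. The log2 ratio of (CPM + 5) between Tph1-high and Neurog3-high wells was 0.10 in the ISX-9 plate and -0.61 in the DMSO plate. The ISX-9 value changed sign to -0.35 when each well was weighted equally, so no order of the classes can be read there.

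Pclo (chromosome 5), which encodes the scaffold Piccolo, followed the same course at lower read numbers. In the ISX-9 plate it had 177 CPM (155 to 200) in Tph1-high wells, 153 CPM (140 to 167) in Neurog3-high wells and 2.91 CPM (1.33 to 5.53) in non-endocrine wells. With DMSO it had 109 CPM (95.4 to 125), 181 CPM (161 to 204) and 3.48 CPM (1.95 to 5.74) in these classes. It was read in 53.3% of ISX-9 and 58.8% of DMSO Neurog3-high wells, against 12.5% and 13.0% of non-endocrine wells. Wells with both factors high, with Neurog3 and Tph1 each at 1000 CPM or more, had 240.0 CPM in the ISX-9 plate (15 wells) and 226 CPM in the DMSO plate (13 wells). The Tph1-high to Neurog3-high log2 ratio was 0.20 with ISX-9 and -0.70 with DMSO. The ISX-9 value was moved by single wells: a Tph1-high well reached 13889 CPM, against a class median of 0, and the ratio was 1.31 with wells weighted equally and -0.13 over wells with at least 10000 reads.

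Syt7 (chromosome 19) encodes synaptotagmin 7, a high-affinity calcium sensor of slow release. It was the member with the smallest difference from non-endocrine wells. In the ISX-9 plate it had 788 CPM (742 to 837) in Tph1-high, 520 CPM (495 to 545) in Neurog3-high and 192 CPM (177 to 208) in non-endocrine wells. The DMSO plate had 418 CPM (390 to 447), 459 CPM (425 to 494) and 109 CPM (99.0 to 119) in these classes. The Tph1-high to Neurog3-high log2 ratio was 0.60 with ISX-9 and -0.13 with DMSO. The DMSO value changed sign with the weight of deep wells: it was 0.70 with wells weighted equally, 0.93 thinned and 0.82 without the deepest 5% of wells, and in the ISX-9 plate equal weights gave 0.72 and thinning 1.00. It was read in 78.1% of ISX-9 and 58.7% of DMSO non-endocrine wells, shares that no other member approached there. Within the non-endocrine class, wells with the goblet cell mucin Muc2 at 1000 CPM or more had 661 CPM of Syt7 in the ISX-9 plate (9 of 9 wells with a read) and 200.2 CPM in the DMSO plate (20 of 24). The ISX-9 value lay above the 520 CPM of ISX-9 Neurog3-high wells. Non-endocrine wells with neither Muc2 nor the Paneth cell lysozyme Lyz1 at that level had 82.7 CPM with ISX-9 (13 of 20 wells) and 32.8 CPM with DMSO (4 of 17). Those with Lyz1 but not Muc2 at that level had 39.6 CPM with ISX-9 (3 of 3 wells) and 48.3 CPM with DMSO (3 of 5). The Muc2 wells were shallower, with a median of 40988 reads in the ISX-9 plate and 61958 in the DMSO plate, against 87013.5 and 78342 in the wells with neither gene. That division was chosen after the values were seen, and the part of depth in it was not tested. The highest other member in the Muc2 wells was Pclo, with 11.5 CPM in the ISX-9 plate.

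The summed levels of all members moved with depth, and Syt7 is given in full because it was also read in the deep non-endocrine wells. Over all kept wells of the ISX-9 plate it was 1229 CPM in wells of 2000 to 10000 reads, 815 CPM in wells of 10000 to 40000 reads and 302 CPM in deeper wells. With DMSO it was 915 CPM, 552 CPM and 205 CPM over the same steps, which were also chosen after the values were seen. From the shallowest to the deepest wells with ISX-9, Snap25 had 172, 187 and 87.3 CPM, Cplx2 had 490.1, 841 and 421 CPM and Stxbp5l had 178, 147 and 55.6 CPM. In the DMSO plate Snap25 had 195, 91.2 and 38.7 CPM, Cplx2 had 251, 290 and 197 CPM and Stxbp5l had 301, 114 and 25.3 CPM. Pclo had 230, 151 and 62.3 CPM with ISX-9 and 288, 87.7 and 44.8 CPM with DMSO, and Rab3c had 73.3, 70.2 and 29.5 CPM with ISX-9 and 176, 240 and 98.5 CPM with DMSO. Each member was thus lowest in the deepest wells of each plate. From the shallowest to the deepest wells, Snap25, Pclo and Stxbp5l fell more steeply than Syt7 in the DMSO plate. In the ISX-9 plate Syt7 fell the most steeply of the members. Well by well the relation was weak, with Spearman's rho between CPM and reads of -0.17 for Syt7 with ISX-9 and 0.11 with DMSO, and between -0.04 and 0.17 for the other members. Among wells of at least 40000 reads, Syt7 had 601 CPM in Tph1-high (13 wells), 334 CPM in Neurog3-high (30 wells) and 175 CPM in non-endocrine wells (25 wells) of the ISX-9 plate. In the DMSO plate it had 190.0 CPM (10 wells), 397 CPM (15 wells) and 105 CPM (37 wells). Non-endocrine wells were the lowest among these deep wells, and Tph1-high DMSO wells lay less than 2-fold above them. Depth was not equal within this range. The median was 63402 reads in Tph1-high, 63035.5 in Neurog3-high and 87245 in non-endocrine wells of the ISX-9 plate, and 89131, 70627 and 94546 in the DMSO plate. The part of depth in the contrast was not tested.

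**Figure D2:**
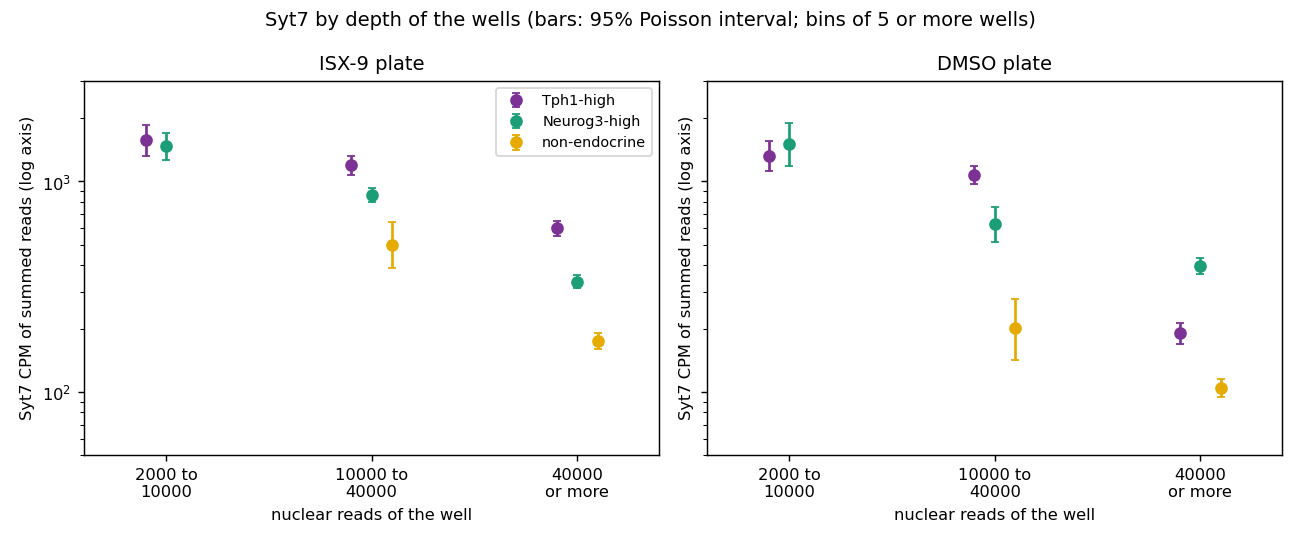
Syt7 CPM of summed reads (log axis) by the number of reads in the well, in Tph1-high, Neurog3-high and non-endocrine wells of the ISX-9 plate (left) and the DMSO plate (right); bars are 95% Poisson intervals and bins of fewer than 5 wells are left out. Levels go down with depth in every class shown, and non-endocrine wells are the lowest in each bin that shows them.

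Snap25 (chromosome 2), which encodes the plasma membrane SNARE SNAP-25, was high in Tph1-high wells. In the ISX-9 plate it had 421 CPM (388 to 457) in Tph1-high, 88.0 CPM (78.1 to 98.8) in Neurog3-high and 5.51 CPM (3.21 to 8.82) in non-endocrine wells. The DMSO plate had 216 CPM (197 to 238) in Tph1-high and 25.3 CPM (17.9 to 34.7) in Neurog3-high wells, and non-endocrine wells held 1 read, 0.232 CPM. Reads were found in 75.0% of ISX-9 and 61.7% of DMSO Tph1-high wells, in 34.4% and 20.6% of Neurog3-high wells, and in 9.38% and 2.17% of non-endocrine wells. After thinning every well to 2000 reads the shares in Tph1-high wells were 52.3% and 27.7%, those in Neurog3-high wells 16.7% and 5.88%, and no non-endocrine well kept a read. Tph1-high wells ran from 0 through a median of 292 CPM to 4764 CPM with ISX-9, and from 0 through 79.5 CPM to 4956 CPM with DMSO, so wells of all classes overlapped at 0. The log2 ratio between Tph1-high and Neurog3-high wells was 2.20 in the ISX-9 plate and 2.87 in the DMSO plate.

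Stxbp5l (chromosome 16) encodes tomosyn-2, a tomosyn of the kind described above. Its summed level in Tph1-high wells had overlapping intervals in the 2 plates. In the ISX-9 plate it had 252 CPM (226 to 280) in Tph1-high, 41.4 CPM (34.7 to 49.0) in Neurog3-high and 0.972 CPM (3 reads) in non-endocrine wells. With DMSO it had 231 CPM (211 to 253), 39.2 CPM (29.9 to 50.6) and 0.464 CPM (2 reads). The Tph1-high to Neurog3-high log2 ratio was 2.47 with ISX-9 and 2.42 with DMSO, and the DMSO value was 1.67 with wells weighted equally. Single wells were uneven: the median Tph1-high well had 117 CPM in the ISX-9 plate and 206 CPM in the DMSO plate, while the highest had 2971 CPM and 3905 CPM.

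Rab3c (chromosome 13) encodes a Rab3 GTPase of secretory vesicles. By summed reads it had the steepest difference of the members between Tph1-high and Neurog3-high wells in the DMSO plate. It had 658 CPM (623 to 694) in Tph1-high, 53.2 CPM (42.2 to 66.2) in Neurog3-high and 3.02 CPM (1.61 to 5.16) in non-endocrine wells there. In the ISX-9 plate these classes had 143 CPM (123 to 164), 19.6 CPM (15.1 to 25.1) and 0.324 CPM (1 read). The Tph1-high to Neurog3-high log2 ratio was 2.58 with ISX-9 and 3.51 with DMSO, and the DMSO value was 2.45 with wells weighted equally. So weighted, Snap25 differed more than Rab3c in the DMSO plate, with a mean of 367 CPM in Tph1-high and 24.4 CPM in Neurog3-high wells. Reads of Rab3c were found in 61.4% of ISX-9 and 78.7% of DMSO Tph1-high wells, against 12.2% and 23.5% of Neurog3-high wells. Wells with Neurog3 and Tph1 both high lay between, at 127 CPM with ISX-9 and 363 CPM with DMSO.

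In counts, 6 of 6 members were at least 2-fold higher in Tph1-high than in non-endocrine wells in each plate, where 15.1% of the genes averaging 10 CPM or more were so in the ISX-9 plate and 11.7% in the DMSO plate. Likewise 6 of 6 were at least 2-fold higher in Neurog3-high than in non-endocrine wells in each plate, against 11.6% and 12% of genes. Members were counted whatever their level, and Rab3c averaged under 10 CPM in that ISX-9 comparison, so 5 of 5 members stand beside the share there on equal terms. No member was at least 2-fold lower in these 4 comparisons. Of genes, 14.2% with ISX-9 and 8.69% with DMSO were lower in Tph1-high wells, and 10.4% and 8.31% in Neurog3-high wells. Between Tph1-high and Neurog3-high wells 3 of 6 members were at least 2-fold higher in each plate (Snap25, Rab3c and Stxbp5l), against 10.5% of genes in the ISX-9 plate and 9.84% in the DMSO plate. No member was at least 2-fold lower there, against 9.23% of genes with ISX-9 and 10.4% with DMSO. The median log2 ratio of the 6 members for that comparison was 1.40 with ISX-9 and 1.14 with DMSO, against -0.03 and -0.09 over all genes compared. The members and the other gene lists were chosen with earlier results of these data known. The shares of genes beside their counts, here and below, are therefore a description and no test.

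At full depth many endocrine wells held reads of several members. Whether the shares exceed what the shares of single members would give was not tested. At least 4 of the 6 had a read in 68.2% of ISX-9 and 70.2% of DMSO Tph1-high wells, in 32.2% and 35.3% of Neurog3-high wells, and in 0% and 2.17% of non-endocrine wells. All 6 were read in 20 ISX-9 and 13 DMSO wells of any class. With every well thinned to 2000 reads, at least 4 members were read in 13.6% of ISX-9 and 19.1% of DMSO Tph1-high wells. In Neurog3-high wells these shares were 4.44% and 5.88%. No non-endocrine well then held 4 or more members, and no well held all 6. After this thinning 2.27% of ISX-9 and 4.26% of DMSO Tph1-high wells held none of the 6, against 68.8% and 82.6% of non-endocrine wells.

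**Figure D3:**
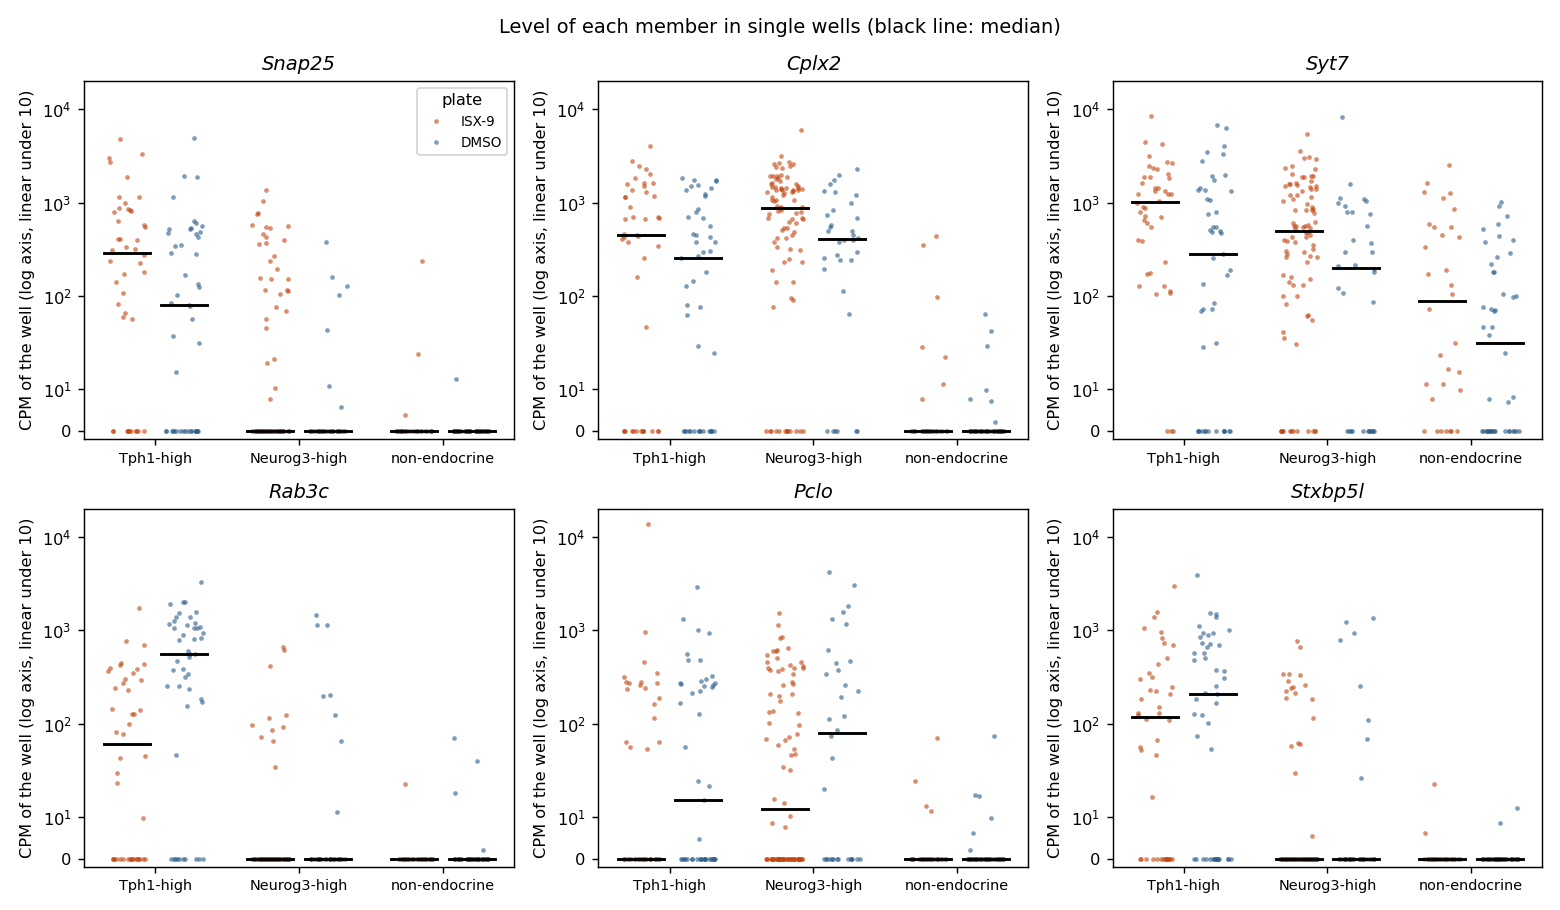
CPM of each member in every Tph1-high, Neurog3-high and non-endocrine well (1 point per well; log axis, linear under 10), with the ISX-9 plate left of the DMSO plate and a black line at the median. Most non-endocrine wells lie at 0 for every member except Syt7, and Rab3c has a median of 61.0 CPM in ISX-9 and 554 CPM in DMSO Tph1-high wells.

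Between treatments, Cplx2 had 505 CPM over all kept wells of the ISX-9 plate and 213 CPM over those of the DMSO plate, a log2 ratio of 1.23. Snap25 had 110.3 CPM with ISX-9 and 51.9 CPM with DMSO, a log2 ratio of 1.02. These were the 2 of 6 members at least 2-fold higher, where 4.51% of genes were, and the median over all genes was 0.15. Rab3c, with 39.3 CPM in the ISX-9 plate and 123 CPM in the DMSO plate and a log2 ratio of -1.53, was the 1 of 6 at least 2-fold lower, where 1.19% of genes were. Syt7 (443 CPM with ISX-9 and 282 CPM with DMSO), Pclo (86.9 CPM and 59.4 CPM) and Stxbp5l (78.7 CPM and 47.9 CPM) had log2 ratios of 0.64, 0.51 and 0.66. Snap25 lies on the edge of the 2-fold limit and was between 0.85 and 0.93 under 5 other settings. The value of Stxbp5l was 0.04 with wells weighted equally and -0.35 with wells thinned to 2000 reads.

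The mixture of classes differed between the plates, and Neurog3-high wells made up 31.0% of kept wells (exact 95% interval 25.8 to 36.7) with ISX-9 and 11.3% (7.98 to 15.5) with DMSO. Ratios within a class are therefore given beside the plate values. Within Tph1-high wells, Cplx2 was the 1 of 6 members at least 2-fold higher, where 13.6% of genes were, with a log2 ratio of 1.15. It was under 2-fold with wells weighted equally (0.73), thinned (0.61) or without the deepest 5% of wells (0.93). Snap25, Syt7 and Pclo had 0.95, 0.91 and 0.67 there, and Stxbp5l had 0.12, which was -0.70 with wells thinned to 2000 reads. Rab3c was the 1 member at least 2-fold lower, where 7.81% of genes were, with -2.17. Within Neurog3-high wells, Snap25 was the 1 of 6 at least 2-fold higher, at 1.62, where 9.5% of genes were, and it was at 0.87 with a class limit of 500 CPM. Rab3c was the 1 at least 2-fold lower there, at -1.24, where 6.18% of genes were. Cplx2, Syt7, Stxbp5l and Pclo had 0.44, 0.18, 0.07 and -0.24 in those wells.

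The Tph1-high wells show the course of Rab3c plainly. The fold was 0.217 (95% counting interval 0.186 to 0.252) on 194 reads in the ISX-9 plate and 1329 reads in the DMSO plate. Over 11 other settings, among them one without the highest well of each group and one over wells with at least 10000 reads, the log2 ratio in these wells lay between -2.59 and -1.47. Over the same kinds of settings it lay between -2.16 and -0.70 in Neurog3-high wells and between -1.68 and -1.12 over all kept wells. The summed level of the 6 enterochromaffin markers, among them Tph1, was 14138 CPM in ISX-9 and 20238 CPM in DMSO Tph1-high wells, and its part in the result was not tested. Peptide-high wells had a gut peptide hormone at 1000 CPM or more, and Neurog3 and Tph1 each under 1000 CPM but not always absent. In them Rab3c had 73.3 CPM (55.8 to 94.5) with ISX-9 and 51.1 CPM (40.1 to 64.3) with DMSO, with intervals that overlapped.

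In non-endocrine wells the reads of the members were few. Cplx2 had 54 reads in the ISX-9 and 18 in the DMSO plate (log2 ratio 1.29), and Snap25 had 17 and 1 (1.01). These were 2 of 6 members at least 2-fold higher, where 7.03% of genes were. The share is over genes averaging 10 CPM or more, which Cplx2 and Syt7 alone of the members did there, so Snap25 has no like share. Of its ISX-9 reads 82.4% came from 1 well. No member was at least 2-fold lower, where 2.7% of genes were. With the highest well of each gene left out, neither was past 2-fold.

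**Figure D4:**
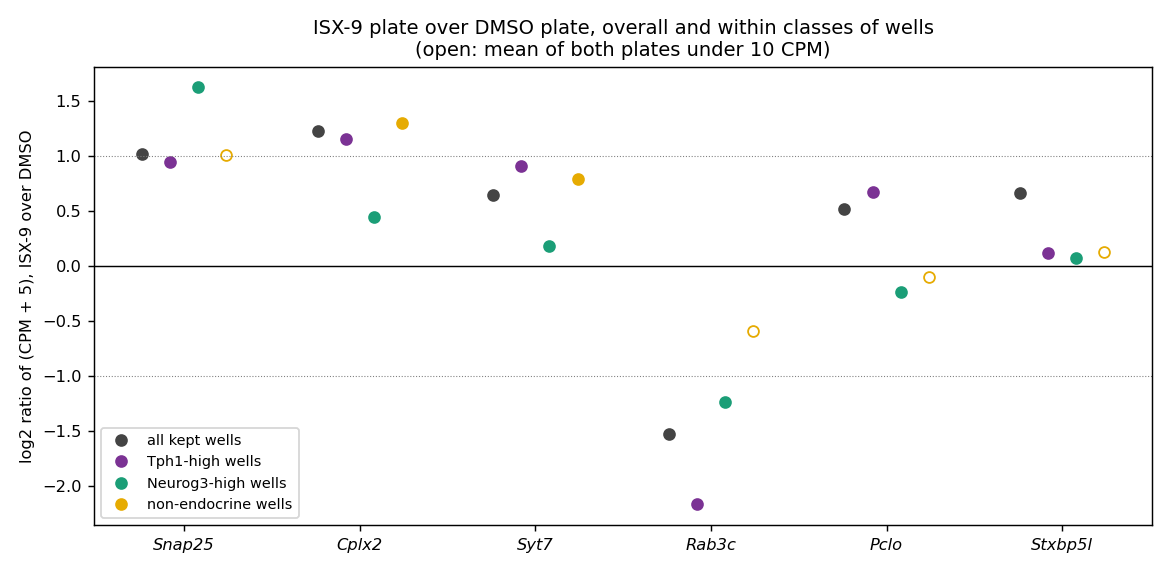
log2 ratio of (CPM + 5), ISX-9 plate over DMSO plate, for each member over all kept wells and within Tph1-high, Neurog3-high and non-endocrine wells; open points average under 10 CPM and dotted lines mark 2-fold. Rab3c lies below 0 in every group of wells, at -1.53, -2.17, -1.24 and -0.59, while Snap25, Cplx2 and Syt7 lie above 0 in all 4.

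Wells outside these classes filled in the range. Wells that met no rule (87 with ISX-9 and 133 with DMSO) had 268 CPM of Cplx2 in the ISX-9 plate and 75.1 CPM in the DMSO plate. Stxbp5l had 80.8 CPM and 9.97 CPM, and Snap25 had 72.4 CPM and 8.75 CPM in those wells. The pan-endocrine markers of the same wells summed to 8520.4 CPM with ISX-9 and 2092 CPM with DMSO. Their goblet markers summed to 6106 CPM and 17756 CPM, and their Paneth markers to 3498 CPM and 18405.5 CPM. The part of these lists in the differences was not tested. In peptide-high wells Snap25 had 217 CPM with ISX-9 and 129.6 CPM with DMSO, and Cplx2 had 683 CPM and 453 CPM.

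Markers of neurons and glia also differed between the classes, and these cell types use the same genes. Of the 8 listed markers 7 had a row, and 5 had a read in each plate. Their summed level was 115 CPM in ISX-9 Tph1-high wells (0 to 923 CPM per well), 198 CPM in Neurog3-high wells (0 to 2064) and 2.91 CPM in non-endocrine wells (0 to 65.1). In the DMSO plate it was 43.6 CPM (0 to 2695), 36.6 CPM (0 to 502) and 1.39 CPM (0 to 112). Tubb3 made up 1005 of 1067 reads with ISX-9 and 180 of 228 with DMSO. S100b, a glial marker, had 0 reads in kept ISX-9 wells and 3 in DMSO wells. Of the 4 mesenchymal markers Vim held 1239 of 1322 reads with ISX-9 and 1657 of 1670 with DMSO, and Col3a1 had 0 in both. That list summed to 402 CPM in ISX-9 and 514 CPM in DMSO Tph1-high wells, and to 6.80 CPM and 1.63 CPM in non-endocrine wells. The part of either list in the results was not tested. The immune markers had 1 read in the ISX-9 plate and 2 in the DMSO plate.

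The genes most like each member were found by the mean of the 2 within-plate Pearson correlations of log2(reads per 10000 + 1), over 196 ISX-9 and 215 DMSO wells with at least 10000 reads and among 9955 genes. Such values are descriptions, since wells of a plate share library, scaling and mixture of cell types. Cplx2 was most like Neurod1 (mean r 0.72), a transcription factor of endocrine differentiation, the calcium channel gene Cacna1a (0.70) and Runx1t1 (0.66). Pclo was most like Neurod1 (0.56), Cplx2 (0.53) and Cacna1a (0.53). Snap25 was most like the sodium channel gene Scn3a (0.62), the granule protein gene Chga (0.60) and Tph1 (0.59). Rab3c was most like Tph1 (0.72), Chga (0.70) and Scn3a (0.68), and Stxbp5l was most like Scn3a (0.61), Chgb (0.59) and Chga (0.59). For Rab3c the correlation with Tph1 was 0.60 in the ISX-9 plate and 0.85 in the DMSO plate. Syt7 had lower values, led by the nuclear noncoding RNA Malat1 (0.45), the vesicular monoamine transporter gene Slc18a1 (0.44) and Cacna1h (0.42). With Neurog3 itself, Cplx2 had r of 0.50 with ISX-9 and 0.52 with DMSO and Pclo had 0.46 and 0.47. The other 4 members lay between -0.06 and 0.18.

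Among the 15 pairs of members, the median r was 0.27 in the ISX-9 plate and 0.31 in the DMSO plate. The highest pair was Cplx2 with Pclo in the ISX-9 plate (0.52) and Rab3c with Stxbp5l in the DMSO plate (0.60). Cplx2 with Pclo had 0.53 in the DMSO plate, while Rab3c with Stxbp5l had 0.32 in the ISX-9 plate. Snap25 with Stxbp5l had 0.45 in the ISX-9 plate and 0.53 in the DMSO plate, and the lowest value was 0.11, for Rab3c with Pclo in the ISX-9 plate.

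The wider fusion machinery gives the setting. Of 98 other vesicle fusion genes listed by role, 87 had a row in either plate. Over all kept wells 0 of the 55 averaging 10 CPM or more were at least 2-fold higher and 0 at least 2-fold lower with ISX-9, against 4.51% and 1.19% of all genes, and their median log2 ratio was 0.17. Within Tph1-high wells 14 of 59 were at least 2-fold higher with ISX-9 and 5 lower, against 13.6% and 7.81% of all genes. Between Tph1-high and non-endocrine wells, 29 of 59 were at least 2-fold higher in the ISX-9 plate and 20 of 54 in the DMSO plate, against 15.1% and 11.7% of all genes, and 4 and 8 were at least 2-fold lower, against 14.2% and 8.69%. Between Tph1-high and Neurog3-high wells 16 of 59 with ISX-9 and 8 of 52 with DMSO were higher, against 10.5% and 9.84% of all genes, and 4 and 2 were lower, against 9.23% and 10.4%. Among target SNAREs, Stx1a, the syntaxin partner of SNAP-25 in neurons, had 320.0 CPM with ISX-9 and 240.1 CPM with DMSO in Tph1-high wells, and 86.8 CPM and 93.1 CPM in Neurog3-high wells. Snap23, the widely expressed relative of Snap25, ran the other way in the ISX-9 plate, on few reads. It had 5.15 CPM (7 reads) in Tph1-high and 16.5 CPM in non-endocrine wells there. In the DMSO plate it had 5.94 CPM (12 reads, 3.07 to 10.4) and 10.7 CPM (7.82 to 14.2), with intervals that overlapped.

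Several relatives of members took one or the other pattern. Cplx1, the other complexin with a row, was read in few wells. In Tph1-high wells it had 33.8 CPM with ISX-9 (6 of 44 wells) and 46.0 CPM with DMSO (16 of 47), against 2.15 CPM and 2.66 CPM in Neurog3-high wells, where Cplx2 was high. Non-endocrine wells held 0 reads of Cplx1, and 3 reads, the limit taken for a count of 0, would be 0.972 CPM with ISX-9 and 0.696 CPM with DMSO. Rab3b had 171 CPM in ISX-9 and 114 CPM in DMSO Tph1-high wells, and 1.23 CPM (4 reads) and 0 CPM (3 reads would be 1.99 CPM) in Neurog3-high wells. It was read in 10 of 44 ISX-9 and 9 of 47 DMSO Tph1-high wells, and did not share the lower ISX-9 level of Rab3c. Rab3d differed little, with 185 CPM and 143 CPM in Tph1-high and 220.0 CPM and 149.6 CPM in Neurog3-high wells. Rab3a had 53.0 CPM and 28.7 CPM in Tph1-high, 13.2 CPM and 43.2 CPM in Neurog3-high, and 13.6 CPM and 11.4 CPM in non-endocrine wells. Stxbp5, the tomosyn relative of Stxbp5l, was broader than it, with 67.7 CPM and 66.8 CPM in Tph1-high, 42.6 CPM and 62.5 CPM in Neurog3-high, and 23.3 CPM and 35.8 CPM in non-endocrine wells. Rab27a was low, between 3.99 CPM and 17.3 CPM in the 3 classes of both plates.

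Among calcium sensors, Syt5 was more limited to endocrine wells than Syt7. It had 285 CPM with ISX-9 and 298 CPM with DMSO in Tph1-high wells, 144 CPM and 160.2 CPM in Neurog3-high wells, and 0 reads and 1 read in non-endocrine wells. Syt13 was higher in Neurog3-high wells in the ISX-9 plate, with 124 CPM in Tph1-high and 291 CPM in Neurog3-high wells, and had 159 CPM and 175 CPM in these classes of the DMSO plate. Syt1, the main sensor of fast transmitter release in neurons, had 13 reads in ISX-9 and 5 in DMSO Tph1-high wells. Of the priming genes, Cadps, which encodes the dense-core vesicle priming factor CAPS1, had 255.9 CPM with ISX-9 and 114 CPM with DMSO in Tph1-high wells and 0 reads in non-endocrine wells of both plates. Bsn, which encodes the Piccolo relative Bassoon, did not follow Pclo, with 69.1 CPM and 41.1 CPM in Tph1-high, 28.2 CPM and 19.9 CPM in Neurog3-high, and 49.2 CPM and 27.9 CPM in non-endocrine wells. The subunits of the exocyst, a complex that tethers vesicles in most cells, had a median log2 ratio between Tph1-high and non-endocrine wells of -0.08 with ISX-9 and -0.41 with DMSO.

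The remaining genes of highest level in each role were mostly broad, and some were highest in non-endocrine wells. Sypl, which encodes a synaptophysin-like vesicle protein, had 260 CPM with ISX-9 and 401 CPM with DMSO in Tph1-high wells, 589 CPM and 466 CPM in Neurog3-high wells, and 769 CPM and 1220 CPM in non-endocrine wells. Rab27b, a Rab of secretory granules, had 27.9 CPM and 23.3 CPM in Tph1-high, 10.1 CPM and 9.31 CPM in Neurog3-high, and 58.9 CPM and 106 CPM in non-endocrine wells. Among vesicle SNAREs, Vamp2, the synaptobrevin of neurons, had 133 CPM and 145 CPM in Tph1-high, 65.9 CPM and 82.4 CPM in Neurog3-high, and 39.5 CPM and 60.6 CPM in non-endocrine wells. Its relatives Vamp3 and Vamp8 took no such course: in Tph1-high wells Vamp3 had 109 CPM and 127 CPM and Vamp8 had 64.0 CPM and 35.6 CPM, against 87.8 CPM and 142 CPM of Vamp3 and 71.2 CPM and 52.5 CPM of Vamp8 in non-endocrine wells.

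Genes that take SNARE complexes apart after fusion differed by less than 2-fold between Tph1-high and non-endocrine wells in the ISX-9 plate. Napa, which encodes alpha-SNAP, had 182 CPM with ISX-9 and 205 CPM with DMSO in Tph1-high and 190.1 CPM and 154 CPM in non-endocrine wells. Nsf, the ATPase it recruits, had 154 CPM and 203 CPM in Tph1-high and 140 CPM and 95.4 CPM in non-endocrine wells. The syntaxin-binding gene Stxbp2 had 207 CPM and 126 CPM in Tph1-high and 121 CPM and 123 CPM in non-endocrine wells. Of the target SNAREs, Stx3 had 121 CPM and 95.04 CPM and Snap47 85.3 CPM and 38.1 CPM in Tph1-high wells, against 86.8 CPM and 81.5 CPM of Stx3 and 60.6 CPM and 59.7 CPM of Snap47 in non-endocrine wells. The exocyst genes Exoc5, Exoc2 and Exoc1 lay between 31.6 CPM and 86.8 CPM in Tph1-high wells and between 33.7 CPM and 59.9 CPM in non-endocrine wells of both plates. Sytl1, which encodes a Rab27 effector, had 50.01 CPM and 30.7 CPM in Tph1-high and 22.0 CPM and 47.4 CPM in non-endocrine wells, and Syngr1 had 26.5 CPM and 39.6 CPM in Tph1-high and 39.2 CPM and 25.8 CPM in non-endocrine wells.

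Other genes of high level in their role were higher in Tph1-high than in non-endocrine wells of both plates. Baiap3, which encodes a dense-core vesicle factor of the Munc13 family, had 179 CPM with ISX-9 and 123 CPM with DMSO in Tph1-high wells, 52.8 CPM and 122 CPM in Neurog3-high wells, and 1.62 CPM and 0 CPM in non-endocrine wells. Its relative Unc13b had 91.2 CPM and 115 CPM in Tph1-high, 50.3 CPM and 26.6 CPM in Neurog3-high, and 30.1 CPM and 44.1 CPM in non-endocrine wells. Syn2, which encodes a synapsin that tethers vesicles in nerve endings, had 45.6 CPM with ISX-9 and 195 CPM with DMSO in Tph1-high wells, as Rab3c lower with ISX-9. It had 76.1 CPM and 59.2 CPM in Neurog3-high and 2.91 CPM and 0.464 CPM in non-endocrine wells. Syt11 had 40.5 CPM and 9.40 CPM in Tph1-high, 32.8 CPM and 25.3 CPM in Neurog3-high, and 2.91 CPM and 2.55 CPM in non-endocrine wells.

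**Figure D5:**
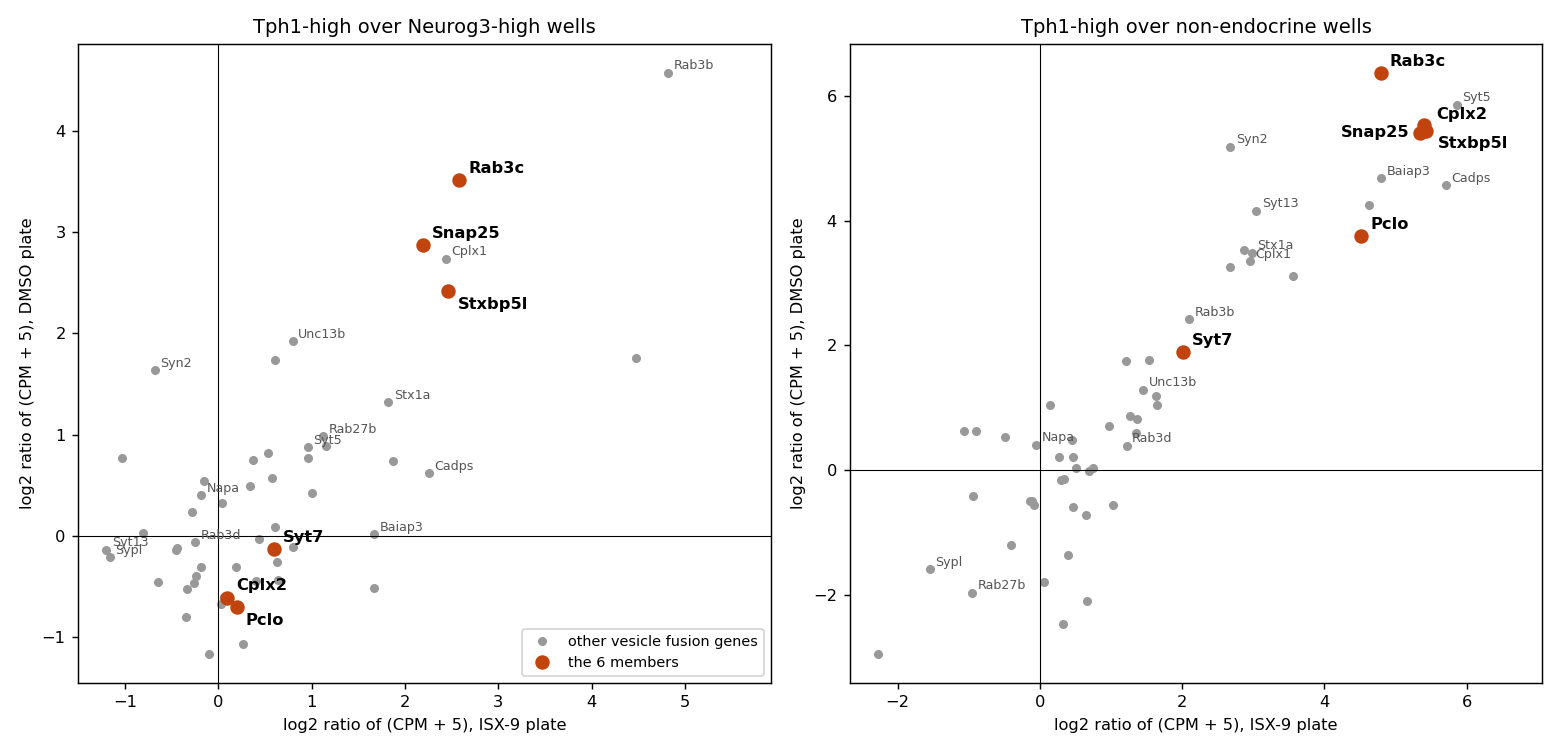
log2 ratio of (CPM + 5) in the ISX-9 plate (horizontal) and the DMSO plate (vertical) for Tph1-high over Neurog3-high wells (left) and Tph1-high over non-endocrine wells (right); red points are the 6 members and grey points the other vesicle fusion genes that average 10 CPM or more in both plates. Snap25, Rab3c and Stxbp5l lie above 2 on both axes on the left, Cplx2, Pclo and Syt7 lie under 1 on both, and all 6 lie above 1 on both axes on the right.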

How the data were processed

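Per the labels' protocols, each sorted cell was lysed in its own well with spike-in RNA, and its polyadenylated RNA was copied with primers holding a cell barcode and a 4-base molecular barcode, amplified by the CEL-Seq2 protocol and sequenced. The authors deposited 1 table of read counts per plate, genes by wells, with no normalization. Values reached 30676 in the ISX-9 plate and 61032 in the DMSO plate, above the 256 combinations of a 4-base molecular barcode, so they are reads and not molecules, which no interval accounts for. BWA and the build hg19 are named in the submitters' processing notes, although the rows carry mouse symbols and chromosomes; the counting rule, its use of strand and the aligner's version are not given in the sources used here. No gene coordinates of the files are printed.

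Reads were summed over the wells of each plate and class and divided by their total outside spike-in and mitochondrial rows (CPM). Intervals are exact at 95%: Poisson for a CPM, Clopper-Pearson for a share of wells, conditional binomial for a fold. Ratios are log2 of (CPM + 5), which understates differences of low genes. Shares of genes past 2-fold are over genes averaging at least 10 CPM in the pair compared, and members were counted whatever their level. Sums weight deep wells more; equal weights and thinning to 2000 reads (seed 20) were alternatives. Doublets were not called; leaving out the deepest 5% of wells was an alternative. Ambiguous wells near the class limits were numerous: 15 ISX-9 and 9 DMSO wells had Neurog3, and 22 and 12 had Tph1, at 500 to 1000 CPM. Of the 59 ISX-9 and 60 DMSO wells with Tph1 at 1000 CPM or more, 22 and 13 were under 2000 CPM. The plates held 17062599 reads with ISX-9 and 21398070 with DMSO in all rows. Other genes were named as the 3 with the highest level in each role and relatives of members. Values of 2 listed genes are not reported here. The 6 members and all gene lists were chosen with earlier results of these data known. The steps were tested on simulated counts. Python 3.11.15, numpy 2.4.6, pandas 2.3.3 and scipy 1.17.1 were used.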

Additional observations from a re-analysis of the deposited data

Results flagged for a closer look

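By summed reads, the order of Tph1-high and Neurog3-high wells differed between the plates for 3 members, and for none of them did that hold under every setting. For Cplx2 the log2 ratio between these classes was 0.10 in the ISX-9 plate and -0.61 in the DMSO plate, a difference of 0.71. For Syt7 it was 0.60 with ISX-9 and -0.13 with DMSO, a difference of 0.73. With wells weighted equally Syt7 had 0.72 with ISX-9 and 0.70 with DMSO, and thinned it had 1.00 and 0.93, so the order was then the same in both plates. For Pclo it was 0.20 with ISX-9 and -0.70 with DMSO, a difference of 0.90. Seen the other way, the ISX-9 over DMSO log2 ratio of Pclo was 0.67 in Tph1-high and -0.24 in Neurog3-high wells, which is the same difference of 0.90. None of these differences was tested, since each treatment had 1 library, and the ISX-9 values of Cplx2 and Pclo and the DMSO value of Syt7 changed sign under other settings. The Neurog3-high ratio of Pclo between the plates was 0.05 over wells with at least 10000 reads and -1.52 with wells thinned.

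Members also had reads in wells left out for low depth or few genes. The 94 such ISX-9 wells held 235 reads of the 6 members, 2118 CPM of their reads, and kept ISX-9 wells had 1263 CPM. The 84 such DMSO wells held 161 reads, 1008 CPM, and kept DMSO wells had 777 CPM. Of these reads Syt7 gave 95 with ISX-9 and 88 with DMSO.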

How the results depend on the processing

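No paired analysis was possible because each treatment had 1 library. The 10 counts of members at least 2-fold higher were computed under 118 alternatives, and 99 stayed within 1.5 times. Over all kept wells the count was 2 of 6 with ISX-9 over DMSO, and 1 with a pseudocount of 20, with wells weighted equally, with wells thinned to 2000 reads, with Rn45s left out of the totals and with median-of-ratios scaling. In Neurog3-high wells it was 1, and 0 at a class limit of 500 CPM. In Tph1-high wells it was 1. It was 0 with wells weighted equally, thinned, or without the deepest 5% of wells, and 2 without the highest well of each group, over wells with at least 10000 reads, or at a class limit of 2000 CPM. In non-endocrine wells it was 2. It was 0 with a pseudocount of 20, thinned, or without the highest well, and 1 with median-of-ratios scaling, with the class defined by Neurog3 and Tph1 alone, or with its limit at 300 CPM. Tph1-high over Neurog3-high wells in the ISX-9 plate gave 3, and 5 with wells thinned to 2000 reads. The 5 other counts stayed within 1.5 times. Causes were not tested. Of 708 alternative values of single members 440 moved by less than the counting interval and 268 by more, and 0 turned a 2-fold difference round. Depth limits the low members: 1 read carries Snap25 in the DMSO and 1 read Rab3c in the ISX-9 non-endocrine wells, and Stxbp5l has 3 and 2 reads there.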
